A study of Homo sapiens with 4 samples.

Results

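The INO80 chromatin remodeling complex is assembled from subunits that it shares with other complexes and from subunits found in no other remodeler. The genes of the latter were examined here, namely *INO80*, *ACTR5*, *ACTR8*, *INO80B*, *INO80C*, *INO80D*, *INO80E*, *NFRKB*, *MCRS1* and *TFPT*. They were chosen by name from the known composition of the human complex. Probes were assigned to them through the transcript accession that the array design gives. This found all 10 genes, measured by 13 probes, among 41000 probes and 17721 named genes on the array.

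Total RNA of Nalm-6, an established human pre-B leukemia cell line, was hybridized without hemin stress to Agilent single-color arrays, with 1 array for each of 4 genotypes on 1 slide. The genotypes were wild-type, Arp5 KO, in which *ACTR5* had been disrupted by homologous recombination, Arp8 KO, in which *ACTR8* had been disrupted in the same way, and a sample labelled Arp8 overexpression. The design text of the series describes the last as Arp8-knockout cells in which Arp8 is expressed from an incorporated Tet-Off unit, a promoter system that tetracycline switches off. Arp5 KO is 1 established cell line, and whether other lines of the same genotype behave alike was not tested. Differences between genotypes have no replicate check, so no p-value is given, and the number of arrays limits the precision. All ratios to wild-type cells share the same wild-type array.

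The cells carried the B-lineage markers of their label. The B cell precursor markers *PAX5*, *EBF1*, *VPREB1*, *IGLL1*, *CD79A*, *CD79B*, *DNTT*, *RAG1* and *MME* were well above background on all 4 arrays. Their levels were not the same on all arrays. As log2 ratios to wild-type after scaling of the arrays, *CD79A* gave -0.56 in Arp5 KO, *VPREB1* gave -0.61 and *RAG1* 0.37 in Arp8 KO, and *MME* gave -0.49 and *CD79B* 0.55 for the array labelled Arp8 overexpression. *DNTT* was higher in both KO lines than on the other arrays, with 0.60 for Arp8 KO and 0.59 for Arp5 KO over the array labelled Arp8 overexpression but 0.20 for each over wild-type. Of 5 T cell markers *CD3D*, *CD3G* and *TRAT1* were not well above background on any array, and the other 2 stayed under 50 units. Of 5 myeloid markers *MPO* was not well above background and 4 were dim. Among the latter *LYZ* gave 55.4 units for wild-type, 139.7 for the array labelled Arp8 overexpression, 46.3 for Arp5 KO and 143 for Arp8 KO. In that order *ITGAM* gave 38.4, 55.2, 28.4 and 74.8 units, *CSF1R* 11.1, 25.3, 11.0 and 16.2 units and *CD14* 119, 110.0, 124 and 123 units. Of these 4 markers, 3 thus had higher signals on both arrays of Arp8-targeted cells than on the other arrays, and *CD14* did not. Some signals of *LYZ*, *ITGAM* and *CSF1R* were under 50 units, where the error is wide. Their part in any result was not tested. All 3 plasma cell markers were well above background. Probes of *SDC1* lay between 11420.0 and 13669 units and between 109.8 and 161 units. *TNFRSF17* varied most, with 161 units for wild-type, 331 for the array labelled Arp8 overexpression, 124 for Arp5 KO and 43.9 for Arp8 KO, and *PRDM1* gave 44.2, 63.8, 94.1 and 62.4 units. Of the fibroblast and epithelium markers *PDGFRB* and 1 of 2 probes of *KRT8* were well above background, *COL1A2* and *EPCAM* were not, and *COL1A1* has no named probe. *PDGFRB* was lower on the Arp8-targeted arrays, with 86.9 units for wild-type, 55.7 for the array labelled Arp8 overexpression, 80.1 for Arp5 KO and 59.0 for Arp8 KO.

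INO80 is an ATPase of the SWI2/SNF2 superfamily that slides and spaces nucleosomes, and the complex built on it takes part in transcription, replication and the repair of broken DNA. The ATPase chain is also the scaffold, on which Arp8 sits together with actin and Arp4, Arp5 sits beside the ATPase motor, and a set of animal-specific subunits gathers at the amino-terminal end. In B-lineage cells DNA is cut and rejoined during assembly of the immunoglobulin genes, and chromatin remodelers are among the factors that act at such breaks.

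The promoter windows of the gene that changed most among the untargeted members, *INO80*, and of a member that stayed near its wild-type level, *INO80E*, are shown for comparison. They are the 250 bases before the transcription start in RefSeq, build GRCh38.p14, written 5′ to 3′ on the strand of the gene. The *INO80* window is chr15:41116281-41116530 on the minus strand, with a GC content of 68.4%. The *INO80E* window is chr16:29995991-29996240 on the plus strand, with a GC content of 64.0%. Capitals mark matches to the GC box GGGCGG, to the ETS family motif CCGGAAGT and to the YY1 motif AANATGGCG, searched on both strands.
INO80: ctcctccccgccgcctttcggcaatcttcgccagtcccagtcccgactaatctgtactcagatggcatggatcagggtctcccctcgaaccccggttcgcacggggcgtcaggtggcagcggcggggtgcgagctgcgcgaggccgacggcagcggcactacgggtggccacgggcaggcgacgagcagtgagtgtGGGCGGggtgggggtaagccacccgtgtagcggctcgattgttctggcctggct
INO80E: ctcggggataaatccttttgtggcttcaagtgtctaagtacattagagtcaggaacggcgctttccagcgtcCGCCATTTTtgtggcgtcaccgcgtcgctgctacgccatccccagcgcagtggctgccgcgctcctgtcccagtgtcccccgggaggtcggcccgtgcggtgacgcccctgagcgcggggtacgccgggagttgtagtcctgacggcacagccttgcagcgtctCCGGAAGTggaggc
The *INO80* window holds 1 GC box, 54 bases before the start. The *INO80E* window holds a YY1 motif on the opposite strand, 178 bases before the start, and an ETS family motif 14 bases before it. YY1 is a DNA-binding protein that is itself found in the INO80 complex. Over the 35116 windows of this length in the same table, 42.6% hold the GC box, 3.42% the ETS family motif and 1.38% the YY1 motif. All 10 members were matched, with 12 windows because *NFRKB* and *TFPT* have alternative starts, and the GC box lies in the windows of 6 genes. Searches for other motifs found the NRF1 motif (in 5.07% of all windows) in *INO80C*, the CCAAT box (CCAAT, 32.0%) in *ACTR5*, *NFRKB* and *TFPT*, and AP-1 (TGANTCA, 6.57%) in no member. The ETS family motif also lies in the window of *INO80B*, and the YY1 motif in no other member. These letters describe the windows only.

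Values are given as processed signal in scanner units, after the software had subtracted the background, and as log2 ratios after each array was scaled to its 75th percentile. Every array measured all 13 probes well above background, so none of their ratios is a bound. Each has 1 spot per array, and its technical error was therefore taken from the 264 probes printed repeatedly. The median SD of their log2 ratios was 0.03 where the dimmer signal was above 500 units, 0.06 between 50 and 500 units and 0.44 under 50 units. This error covers spots on an array and not the variation between cultures. Different probes of the same gene differed by a median of 0.15 for Arp5 KO over wild-type and 0.13 for Arp8 KO over wild-type over 3555 genes, more than the technical SD above 50 units and less than that under 50 units.

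The targeted genes were examined first. *ACTR5* encodes Arp5, which couples the ATPase to productive nucleosome sliding. Probe A_23_P165952 read 1909 units for wild-type, 1849 for Arp8 KO and 2088 for the array labelled Arp8 overexpression, but 65.3 units for Arp5 KO cells. The Arp5 KO array stands far below the others, which lie close together. Arp5 KO over wild-type gave a log2 ratio of -4.85, and of 29882 probes measured in that comparison only 8 had a lower one. Under normexp, a different background step, the ratio was -3.99 with 2 probes lower, and with outlier spots kept 19 probes were lower. In Arp8 KO cells the ratio of *ACTR5* to wild-type was -0.06 and for the array labelled Arp8 overexpression 0.11.

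*ACTR8* encodes Arp8, which binds histones and the DNA linker and is needed to recruit actin and Arp4 to the complex. Probe A_23_P80694 gave 1092 units for wild-type, 679 for the array labelled Arp8 overexpression, 993 for Arp5 KO and 785 for Arp8 KO. Probe A_24_P131697 gave 2149, 1857, 2233 and 1654 units in the same order. With both probes the arrays of the Arp8-targeted cells were below the wild-type and Arp5 KO arrays. The log2 ratios of Arp8 KO to wild-type were -0.49 and -0.40, which leaves most of the *ACTR8* signal in place. The array labelled Arp8 overexpression gave -0.71 and -0.23, so these probes show no higher *ACTR8* signal there, and the array is named by its label throughout. The ratio between the Arp8-targeted arrays was 0.21 with one probe and -0.16 with the other, and their order was not the same for both. Where these probes lie relative to the disrupted exons, and whether they match the introduced mRNA, is not given in the sources used here, so they do not check either label. Whether the labels of the Arp8-targeted arrays were exchanged could not be tested, and an exchange would turn the direction of every ratio between them and exchange their ratios to wild-type.

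**Figure D1:**
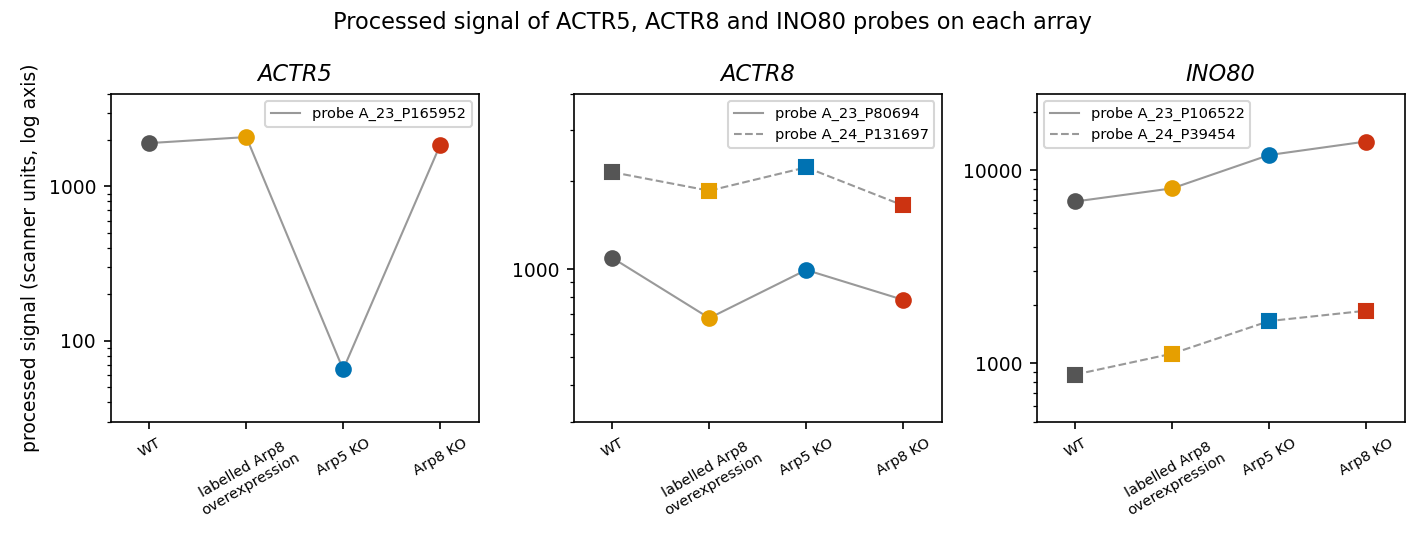
Processed signal (scanner units, log axis) of each probe of *ACTR5*, *ACTR8* and *INO80* on the 4 arrays, with 1 point per array and lines joining the points of one probe. *ACTR5* falls to 65.3 units for Arp5 KO cells, *ACTR8* is lowest on the 2 arrays of Arp8-targeted cells, and both *INO80* probes rise from wild-type to Arp8 KO cells.

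The mRNA of the ATPase itself was higher in both KO cell lines. Probe A_23_P106522 of *INO80* measured 6899.8 units for wild-type, 8070.0 for the array labelled Arp8 overexpression, 12004 for Arp5 KO and 14102 for Arp8 KO cells. Probe A_24_P39454 measured 877, 1124, 1658 and 1876 units in that order. Both probes thus ranked the 4 arrays alike, with the KO arrays above the other arrays and each neighbouring pair further apart than the technical error. The log2 ratios to wild-type were 0.82 and 0.94 for Arp5 KO cells, and 1.01 and 1.08 for Arp8 KO cells. As the mean of both probes this is 1.84-fold and 2.07-fold. The array labelled Arp8 overexpression lay nearer to wild-type, with 0.20 and 0.34, or 1.21-fold.

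The position of *INO80* among all probes was then examined. In the ratio of Arp8 KO to wild-type cells, 1.42% and 1.20% of 29474 probes were higher than its probes. For Arp5 KO cells these shares were 2.11% and 1.35% of 29882 probes, and for the array labelled Arp8 overexpression 25.5% and 14.1% of 29656 probes. *INO80* therefore lies in the upper tail for the KO cells and nearer the middle for the array labelled Arp8 overexpression. Direct ratios between these arrays follow from the same values. They were 0.81 and 0.74 for Arp8 KO over the array labelled Arp8 overexpression, and 0.62 and 0.61 for Arp5 KO over the same array. The KO cells differed less from each other, with -0.19 and -0.14 for Arp5 KO over Arp8 KO.

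For each probe the gap between the lower KO array and the higher of the other arrays was computed, which is above 0 when both KO arrays lie above the wild-type array and the array labelled Arp8 overexpression. It was 0.62 and 0.61 for the probes of *INO80*. Of 27921 probes well above background on all arrays, 50 and 57 had a larger gap. The gap takes the Arp8-targeted arrays by their labels, and with these exchanged it would be -0.81 and -0.74 for *INO80*, with larger gaps for 93.3% and 91.8% of probes. Both KO arrays lay above both others for 3 of 13 member probes, against 18.3% of all probes, a share near the background. These were both *INO80* probes and A_23_P142756 of *INO80D*, a probe under 50 units on every array whose gap of 0.13 is below the technical SD of 0.44. Both KO arrays lay below both others for 1 member probe, that of *ACTR5*, against 13.9% of all probes.

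**Figure D2:**
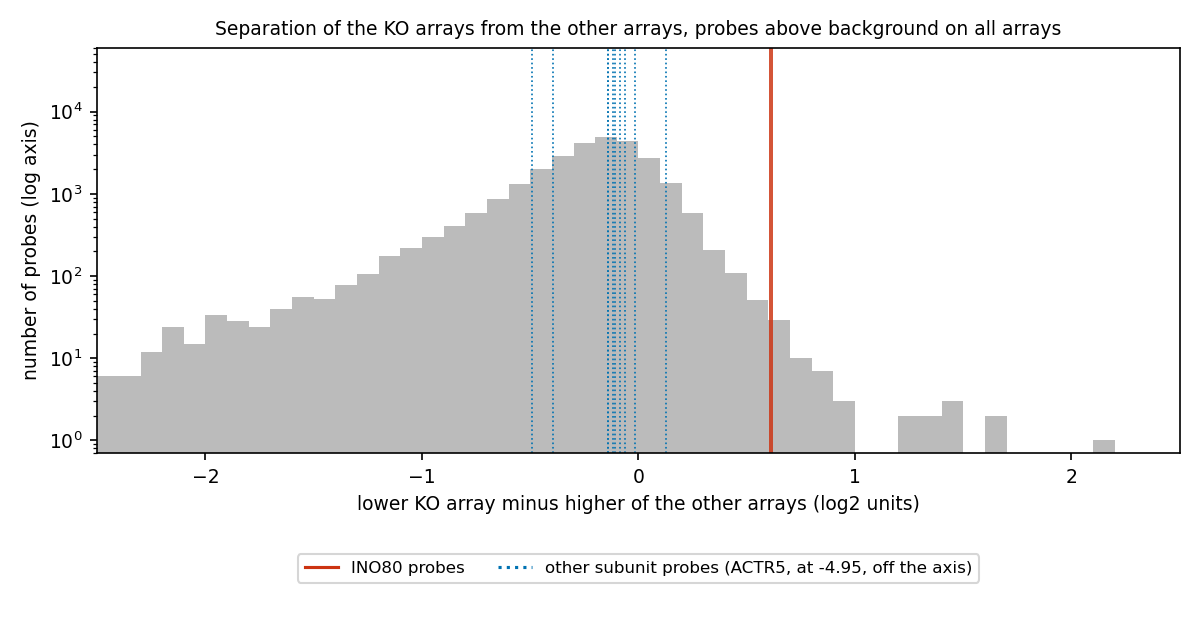
Histogram of the gap between the lower KO array and the higher of the other arrays (log2 units) over the probes that passed background on every array, with the number of probes on a log axis and lines at the member probes. The *INO80* probes lie at 0.62 and 0.61, while the *ACTR5* probe, at -4.95, and other probes beyond 2.5 log2 units lie outside the plotted range.

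*INO80B* and *INO80C* encode the human forms of Ies2 and Ies6, small subunits that work with Arp5 at the ATPase motor. *INO80B* gave 179 units for wild-type, 159 for the array labelled Arp8 overexpression, 162 for Arp5 KO and 197 for Arp8 KO. *INO80C* gave 7218, 9063, 8788 and 8648 units in that order. The wild-type array was the lowest of the 4 for *INO80C*, with log2 ratios of 0.31 for the array labelled Arp8 overexpression, 0.31 for Arp5 KO and 0.24 for Arp8 KO. For *INO80B* the ratios were -0.19, -0.12 and 0.12. Both genes stayed inside 1.5-fold in every comparison with wild-type cells.

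The subunits at the amino-terminal end changed less than *INO80*. *NFRKB*, whose protein binds the deubiquitinase UCHL5 and holds it inactive in the complex, gave 535 units for wild-type, 637 for the array labelled Arp8 overexpression, 559 for Arp5 KO and 672 for Arp8 KO. *TFPT*, also known as a fusion partner of *TCF3* in childhood leukemia, gave 6722, 7811, 7496 and 9101 units. Their ratios of Arp8 KO to wild-type cells, 0.31 and 0.42, were the highest of the untargeted members after *INO80*. In Arp5 KO cells the ratios were 0.09 and 0.18, and for the array labelled Arp8 overexpression 0.23 and 0.19.

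*MCRS1*, which carries a forkhead-associated domain, and *INO80E* moved least. *MCRS1* gave 5763 units for wild-type, 6109 for the array labelled Arp8 overexpression, 5496 for Arp5 KO and 5866 for Arp8 KO. Its range over the 4 arrays was 0.11 on the log2 scale, and 96.7% of probes had a larger one. *INO80E* gave 6916, 7904, 6950 and 7514 units, a range of 0.17. The ranges of the *INO80* probes, 1.01 and 1.08, were exceeded by 7.88% and 6.70% of probes, and the median over all probes was 0.38. *INO80D* was dim, with 23.2, 20.8, 24.9 and 26.9 units for A_23_P142756 and 66.7, 71.8, 65.6 and 78.7 units for A_23_P209652, again in that order. The ratios of A_23_P142756 to wild-type lay within the technical error.

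**Figure D3:**
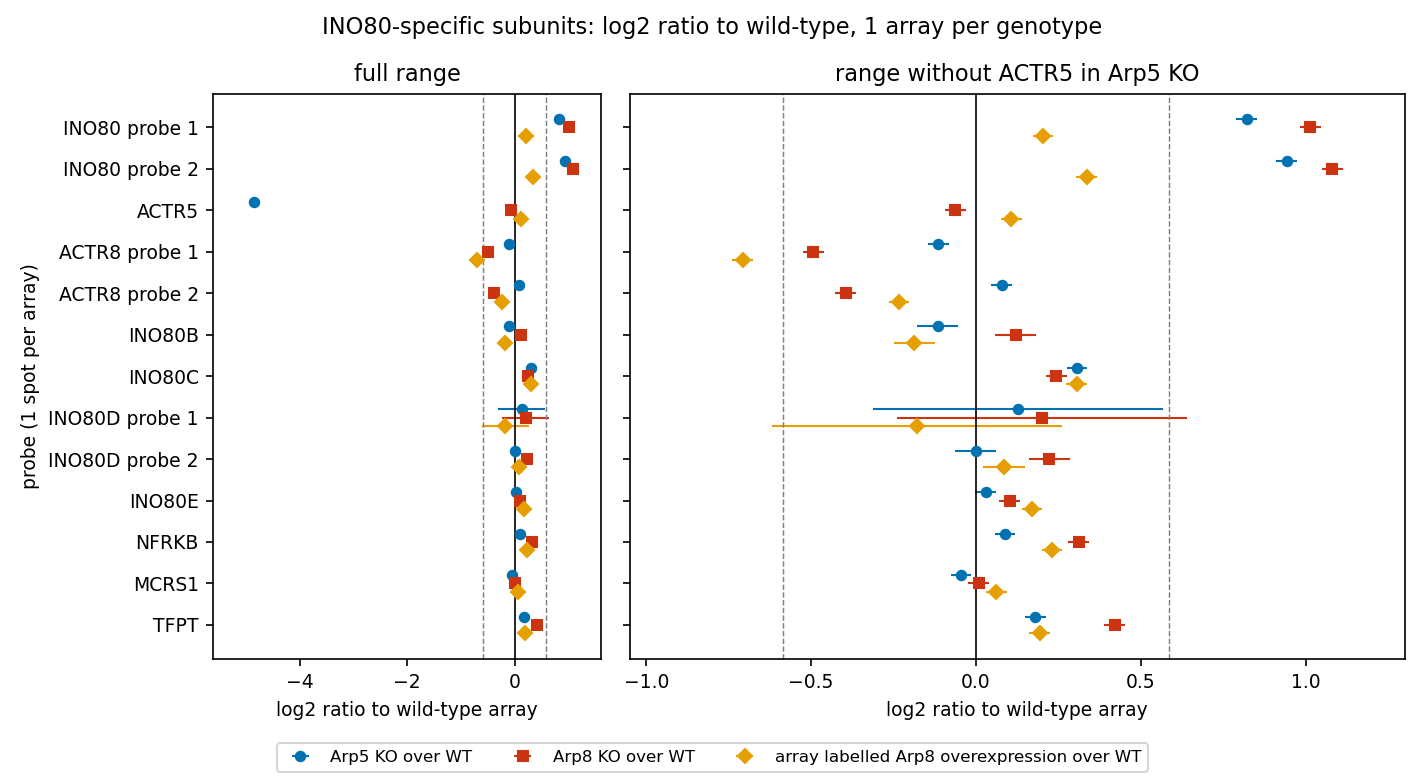
Log2 ratio to the wild-type array of each of the 13 member probes, on the full range (left) and without *ACTR5* in Arp5 KO cells (right), with bars for the median technical SD of repeated probes of like signal and dashed lines at 1.5-fold (0.585 up or down). Only the *INO80* probes lie beyond the upper line, at 0.82 to 1.08 in the KO cells, and *ACTR5* in Arp5 KO and probe 1 of *ACTR8* for the array labelled Arp8 overexpression lie beyond the lower one.

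Counted over the members, few probes moved beyond 1.5-fold. In Arp5 KO over wild-type cells 3 of 13 probes did so, 2 of *INO80* upward and that of *ACTR5* downward, against 8.88% of all probes. In Arp8 KO over wild-type cells 2 of 13 did so, both of *INO80* and both also beyond 2-fold, or 1 of them under normexp and in the authors' table, against 12.2% of all probes at 1.5-fold and 3.53% at 2-fold. On the array labelled Arp8 overexpression the count was 1 of 13, a probe of *ACTR8* that was lower, against 13.2%. For Arp8 KO over the array labelled Arp8 overexpression it was 2 of 13, again those of *INO80*, against 8.43%. Apart from *INO80* and the targeted genes, no member probe passed 1.5-fold in these 4 comparisons.

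The signs of the smaller ratios were also counted, taking each gene by the mean of its probes. In Arp8 KO cells 8 of 10 genes were higher than in wild-type, of which *MCRS1* changed sign under another scaling of the arrays, and the median log2 ratio was 0.17 against 0.01 over all probes. In Arp5 KO cells 6 of 10 were higher, of which *INO80E* changed sign under another scaling, and the median was 0.05 against 0.04. On the array labelled Arp8 overexpression 7 of 10 were higher and the median was 0.14 against 0.01, with changes of sign for *INO80D* and *MCRS1* under other scalings. Without *ACTR5* and *ACTR8* the ratios were above 0 for 8 of 8 genes in Arp8 KO, 6 of 8 in Arp5 KO and 6 of 8 for the array labelled Arp8 overexpression, with the exceptions just given, and the medians were 0.23, 0.08 and 0.18. Over all probes the share above 0 was 51.3% in Arp8 KO, 56.4% in Arp5 KO and 51.6% for the array labelled Arp8 overexpression. The untargeted members other than *INO80* ranged from 0.01 to 0.42 for Arp8 KO cells, from -0.12 to 0.31 for Arp5 KO and from -0.19 to 0.31 for the array labelled Arp8 overexpression.

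The subunits that INO80 shares with other complexes gave smaller differences. They are the AAA+ ATPases *RUVBL1* and *RUVBL2*, *ACTL6A* for Arp4, *ACTB* for actin, *UCHL5* and *YY1*, with 11 probes. None of these passed 1.5-fold in any of the same 4 comparisons. The median over the 6 genes was -0.03 for Arp5 KO, -0.11 for Arp8 KO and -0.02 for the array labelled Arp8 overexpression, the last of which changed sign under another scaling. *RUVBL1* was the 1 gene above wild-type in Arp8 KO cells, with 0.21, while *RUVBL2*, its partner in the same ring, gave -0.21. Probes of *ACTB* disagreed, since A_23_P135769, with 10 spots per array, gave -0.35 and -0.32 for Arp5 KO and Arp8 KO cells, and the other 3 lay between -0.12 and 0.05.

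SRCAP and TIP60, the related remodelers that place the histone variant H2A.Z, were taken for comparison. None of the 7 probes of 6 SRCAP subunit genes and none of the 17 probes of 11 TIP60 subunit genes passed 1.5-fold in the 4 comparisons. Nor did the 5 probes of the H2A.Z genes *H2AZ1* and *H2AZ2* or the 15 probes of 8 other Arp genes. Under other scalings or background steps 3 of these genes had a probe beyond 1.5-fold, *EPC1* of TIP60 for the array labelled Arp8 overexpression, *H2AZ2* for Arp8 KO over wild-type and *ACTR3B* for Arp8 KO over the array labelled Arp8 overexpression. The median over the SRCAP genes was -0.05 for Arp5 KO cells and 0.01 for Arp8 KO cells, the latter with a change of sign under another scaling. It was -0.11 for the array labelled Arp8 overexpression. For TIP60 it was 0.07, -0.11 and 0.05, the last again with a change of sign under another scaling. The ATPase of SRCAP, encoded by *SRCAP*, gave 0.09 for Arp5 KO and -0.07 for Arp8 KO cells, and that of TIP60, encoded by *EP400*, gave 0.06 and -0.24, where *INO80* gave 0.88 and 1.05.

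**Figure D4:**
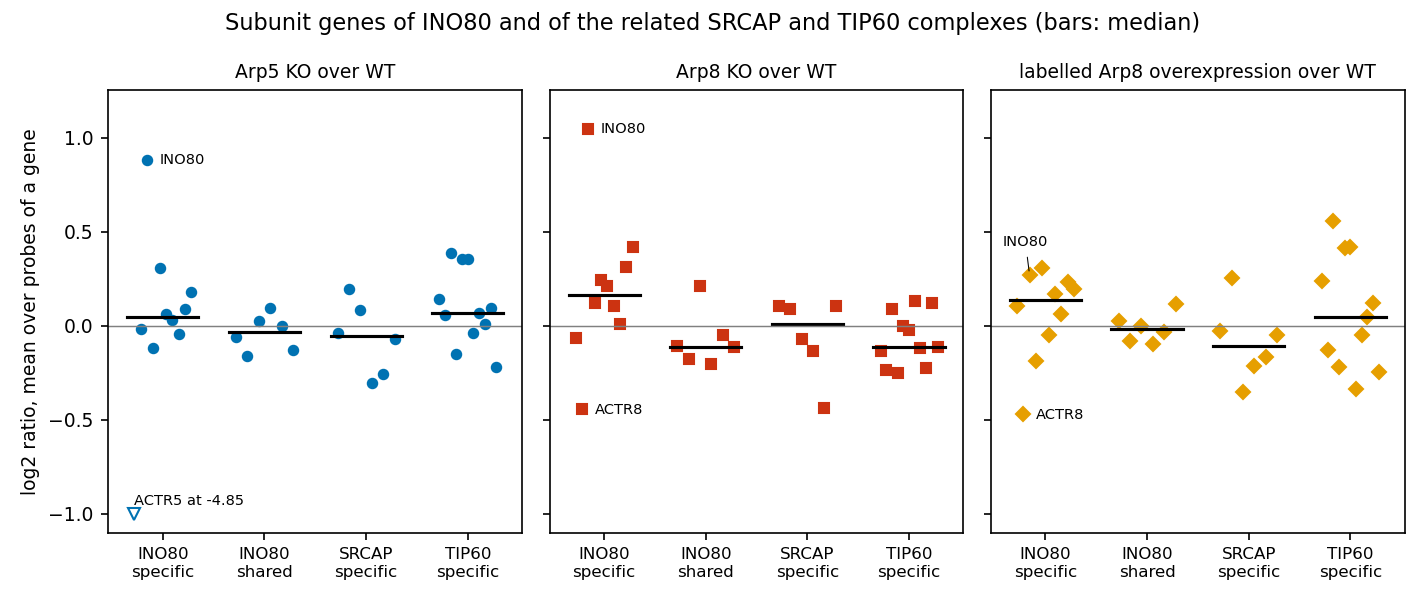
Log2 ratios to the wild-type array of subunit genes of INO80, SRCAP and TIP60, with 1 point per gene (mean of its probes) and horizontal bars at the median of each list. *INO80*, at 0.88 for Arp5 KO and 1.05 for Arp8 KO cells, stands above all other genes shown in those panels, and *ACTR5* in Arp5 KO cells is drawn as an open triangle at the edge because its value of -4.85 lies outside the axis.

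The nearest protein-coding genes on either side of *INO80*, *ACTR5* and *ACTR8* in the RefSeq gene table of GRCh38.p14 were also read. *CHAC1*, a glutathione-degrading enzyme gene beside *INO80*, gave 3129 units for wild-type, 3556 for the array labelled Arp8 overexpression, 4699 for Arp5 KO and 4419 for Arp8 KO cells. Like *INO80* it was higher on both KO arrays, with log2 ratios of 0.61 and 0.48 to wild-type and 0.16 for the array labelled Arp8 overexpression. *EXD1* on the other side was not well above background on any array. Beside *ACTR5*, *SLC32A1* gave 0.21 and *PPP1R16B* gave 0.16 and 0.41 with its probes in Arp5 KO cells, where *ACTR5* itself gave -4.85. The 0.41 is of a probe with 22.6 units for wild-type and lies within the technical SD of 0.44. For the array labelled Arp8 overexpression the *PPP1R16B* probes gave 0.70 and 0.74, beyond 1.5-fold, but their mean was 0.47 under normexp. Beside *ACTR8*, *SELENOK* gave 0.22 for Arp8 KO cells, and *IL17RB* was well above background on the wild-type array alone, with 9.43 units near the lowest measurable signal of 7.76. Whether neighbouring genes move together was not tested.

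Finally, the profiles of *INO80* and *ACTR5* over the 4 arrays were compared with those of 12968 named genes. The measure was the Euclidean distance of log2 values centred on their own mean, taking for each gene its nearest probe. The other members were not compared in this way. The probes of *INO80* were 0.10 apart by this measure, and a gene with no change would be 0.86 away from their mean. The nearest genes were *CISH*, a feedback inhibitor of cytokine signaling, at 0.11, *RENBP* at 0.12, *CCT6B* at 0.14, *LOC100128288* at 0.15 and *SEMA3B* at 0.15. *CISH* gave 100.5 units for wild-type, 112 for the array labelled Arp8 overexpression, 166 for Arp5 KO and 199 for Arp8 KO cells. These probes are dimmer than those for which the technical SD is 0.03, with 49.1 to 157 units for wild-type cells, and that of *RENBP*, at 49.1 units, is in the range where it is 0.44. Under normexp *RENBP* gave 0.37 for Arp5 KO and 0.55 for Arp8 KO over wild-type and *SEMA3B* 0.35 and 0.59, where *INO80* gave 0.83 and 0.996. The likeness is that of the probe named and can differ for the gene. The log2 ratios of *LOC100128288* were 0.85 for Arp5 KO and 0.97 for Arp8 KO with the nearest probe. As the mean of its probes they were 0.69 and 0.69. For Arp5 KO cells, where *INO80* gave 0.88, *SEMA3B* gave 0.68 with the nearest probe and 0.61 as the mean. *CISH* went the other way there, with 0.74 for the nearest probe and 0.82 as the mean.

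For *ACTR5* a gene with no change would be 4.21 away. The nearest gene was *OCIAD2*, at 0.38, which gave 4164 units for wild-type, 4683 for the array labelled Arp8 overexpression, 197 for Arp5 KO and 4934 for Arp8 KO. Its log2 ratio in Arp5 KO cells was -4.38, close to the -4.85 of the targeted gene. *GSTK1* at 1.26 and *PYCARD* at 1.44 followed, with -5.40 and -5.55 for Arp5 KO cells, then *CCDC3* at 1.55 and *CHST6*. The Arp5 KO signals of *GSTK1* and *PYCARD*, 9.82 and 28.4 units, are in the range where the technical SD is 0.44, and the size of their ratios depends on the background step. Under normexp they were -2.75 and -3.98, where *OCIAD2* gave -4.04 and *ACTR5* -3.99. These genes thus had low signals in the 1 Arp5 KO cell line, and whether other Arp5 KO lines show this was not tested. Likeness over 4 arrays is a description of these arrays.

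**Figure D5:**
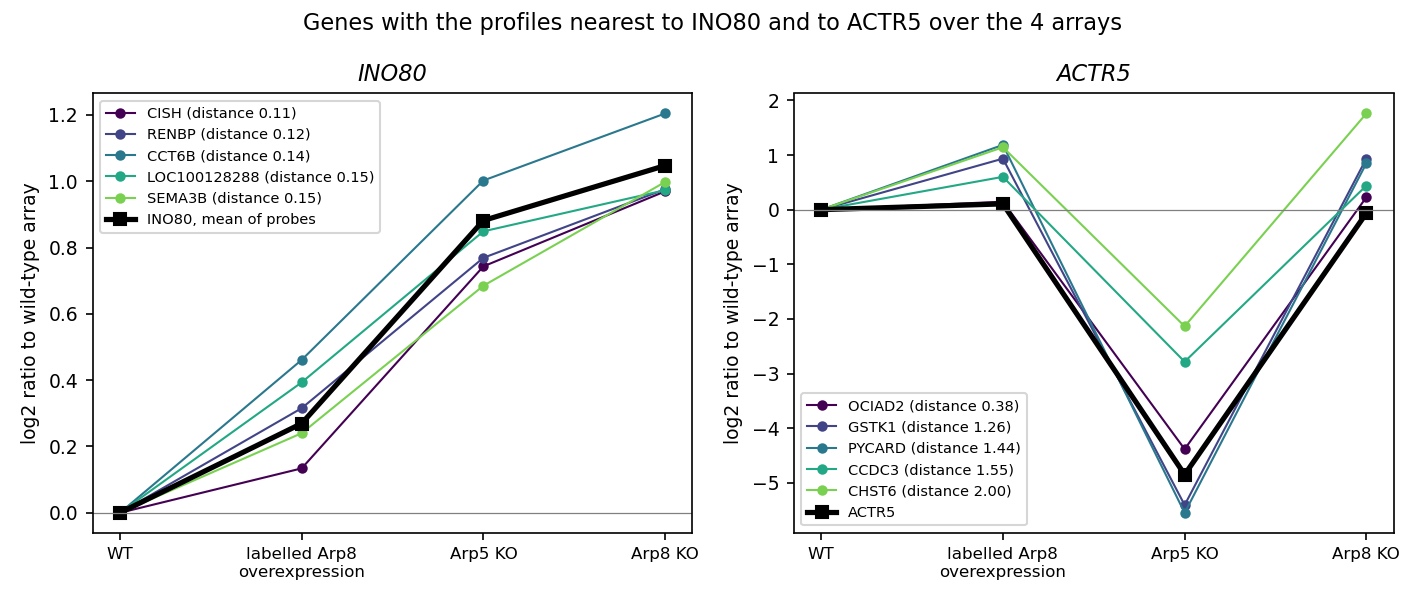
Log2 ratio to the wild-type array over the 4 arrays of *INO80* (left) and *ACTR5* (right), as thick black lines, and of the nearest probe of the 5 genes nearest to each, with lines joining the values of one gene. *CISH* follows *INO80* at a distance of 0.11, and *OCIAD2* follows *ACTR5* at 0.38 with a ratio of -4.38 for Arp5 KO cells.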

How the data were processed

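RNA of Nalm-6 cells, wild-type, Arp5 KO, Arp8 KO and labelled Arp8 overexpression was measured on 1 array each. The authors deposited the output of Agilent Feature Extraction 10.5.1.1, whose processed signal is a linear intensity from which the software had subtracted background and a trend across the array, without scaling of one array to another. The other marks used, also deposited by the authors, flag outlier spots, saturated spots and spots well above background. The authors' table of intensity values was found to be the processed signal times one factor per array, with medians of the values of 127.45, 127.9, 122.5 and 119.1 for wild-type, Arp5 KO, Arp8 KO and the array labelled Arp8 overexpression. The basis of that factor is not given in the sources used here.

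From these, log2 processed signal minus the array's 75th percentile was computed over 43376 non-control spots. The percentile was 1980.5 units for wild-type, 2012 for the array labelled Arp8 overexpression, 1950.0 for Arp5 KO and 2004 for Arp8 KO, and 31188, 30803, 31420 and 30394 spots were well above background. No spot was saturated. Outlier spots were left out and the spots of a probe averaged. A ratio was used where the brighter array was well above background, and the dimmer one was set to at least the lowest signal seen well above background on its array. Genes were taken as the mean of their probes, and for the nearest profiles as their nearest probe. Accessions were named through the RefSeq gene table of GRCh38.p14, which gave 26222 of 41000 probes (64.0%) 1 gene, and 69 of the 70 genes listed had a probe. The design annotation of the arrays is of another build, so its coordinates were not used, and promoter windows and neighbouring genes were read from RefSeq tables of GRCh38.p14. Named genes are the members, the listed subunit, Arp, H2A.Z and marker genes, the nearest protein-coding neighbours and the 5 nearest profiles. Members and lists were chosen with earlier results of these data known. The median instead of the mean signal entered normexp, since no mean signal column is among those used here. Calls were tested on simulated data with planted 2-fold changes and spot noise only, which leaves out variation between cultures. Alternatives were other scalings, normexp with an offset of 50, the authors' table, other filters on spots and dim probes, a threshold of 2-fold, the brightest probe per gene, the omission of genes or of an array and an exchange of labels. Python 3.11.15 with numpy 2.4.6, pandas 2.3.3 and matplotlib 3.10.9, and R 4.3.3 with limma 3.58.1 were used. Probe sequences and protein sequences were not used here.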

Additional observations from a re-analysis of the deposited data

How the results depend on the processing

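No paired analysis was possible because single arrays stand for each genotype and no test between genotypes was run. Over all alternatives, 134 values for the main comparisons moved by less than the technical SD, or for counts by less than 1.5 times. A further 31 moved more. Among the 134 are those under the other filters on spots and dim probes, which could not move member values. Every member probe had 1 spot per array, kept and well above background. Among single genes 1759 values moved by less than the technical SD and 507 moved further. Neighbouring genes and nearest profiles were judged there by the SD of signals above 500 units, whatever their own signal. Among these values no ratio beyond 1.5-fold changed sign under another scaling or background step. The marker genes were not part of this check. An exchange of the labels of the Arp8-targeted arrays would turn the direction of every ratio between them.

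Scaling to the median gave *ACTR8* log2 ratios of -0.41 for Arp8 KO and -0.42 for the array labelled Arp8 overexpression, *INO80* 0.84 for Arp5 KO, 1.08 for Arp8 KO and 0.32 for the array labelled Arp8 overexpression, and medians over the members of 0.00209, 0.20 and 0.19. The percentile over only the probes that passed background on every array gave, for the array labelled Arp8 overexpression, -0.50 for *ACTR8*, 0.24 for *INO80* and a median of 0.11. Quantile normalization gave -4.93 for *ACTR5* in Arp5 KO cells and a median there of 0.012. Normexp gave -3.99 for *ACTR5*, 0.83 and 0.996 for *INO80* in Arp5 KO and Arp8 KO cells, and a median of 0.13 for Arp8 KO cells. The table of the authors gave -0.52 for *ACTR8* and 0.22 for *INO80* for the array labelled Arp8 overexpression, 0.84 for *INO80* in Arp5 KO cells, and medians of 0.00829 for Arp5 KO and 0.091 for the array labelled Arp8 overexpression. These shifts follow from the other scaling or background step.

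At 2-fold in place of 1.5-fold the numbers of member probes were 1 for Arp5 KO over wild-type, 0 for the array labelled Arp8 overexpression and 0 for Arp8 KO over it. Taking each gene by its brightest probe gave a median of 0.014 for Arp8 KO over the array labelled Arp8 overexpression. Without *ACTR5* and *ACTR8* the medians were 0.23 for Arp8 KO over wild-type, 0.18 for the array labelled Arp8 overexpression over wild-type and 0.15 for Arp8 KO over the array labelled Arp8 overexpression. Leaving out the array labelled Arp8 overexpression was chosen after seeing the data. Both KO arrays then lay above wild-type for 7 of 13 probes, against 39.2% of all probes. A minimum gap of 0.1, also chosen after seeing the data, left the number of probes above both other arrays at 3, against 8.43% of all probes. With the labels of the Arp8-targeted arrays exchanged, again chosen after seeing the data, that number was 1, a probe of *INO80C*, against 16.3% of all probes.

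With 1 array per genotype, differences between cultures, RNA preparations and genotypes cannot be told apart. Repeated spots bound only the error within an array, and under 50 units it is wide enough to cover every ratio of the dimmer *INO80D* probe to wild-type. *ACTR8* could not be used to check the Arp8 KO or overexpression labels, so a direction drawn from either array rests on its label. All comparisons with wild-type cells share 1 array, and a deviation of that array would move them together.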

Other observations

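Some subunits of the TIP60 complex had a different pattern from *INO80*, with higher values in Arp5 KO and for the array labelled Arp8 overexpression than in wild-type and Arp8 KO cells. This held for 5 of 11 genes, *KAT5*, *ING3*, *EPC1*, *BRD8* and *MORF4L1*, the last not under any other scaling or background step, and for 6 of 17 probes against 16.3% of all probes. The others, among them *EP400*, *TRRAP*, *EPC2* and *MBTD1*, did not show it, except *MEAF6* under median scaling. The genes whose values follow were picked after these were seen. *KAT5*, the acetyltransferase of the complex, gave log2 ratios to wild-type of 0.36 for Arp5 KO, -0.02 for Arp8 KO and 0.42 for the array labelled Arp8 overexpression. *ING3*, a reader of methylated histone H3, gave 0.36, -0.00 and 0.41, and *EPC1*, a scaffold of the acetyltransferase module, gave 0.38, 0.09 and 0.56. The sign of *KAT5* and *ING3* in Arp8 KO cells changed under another scaling. All are inside 1.5-fold, except *EPC1* for the array labelled Arp8 overexpression under median scaling, with 0.61. The pattern takes the Arp8-targeted arrays by their labels. With these exchanged, the 6 probes would have both KO arrays above both others. The pattern itself would then hold for 1 of 17 probes, against 18.3% of all probes.

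*ACTR3B*, which encodes a form of Arp3 of the cytoplasmic Arp2/3 complex, was higher in Arp8 KO cells than for the array labelled Arp8 overexpression by 0.44 as the mean of its probes, also inside 1.5-fold, though a probe was beyond it under normexp. The remaining Arp genes lay between -0.16 and 0.13 in that comparison.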
